A study of Mus musculus with 12 samples.

Results

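Excitation-contraction coupling turns the electrical signal of a muscle fibre into a release of stored calcium, and 9 genes of that machinery were followed here in differentiating and proliferating mouse myoblasts given acetoacetate. The genes were Cacna1s, Cacnb1 and Cacng1 (voltage sensor), Ryr1 (release channel), Casq2 and Trdn (calcium store), Jph1 and Jph2 (membrane junction) and Atp2a1 (calcium pump). They were taken by symbol from the 23446 genes of the deposited table, and all 9 were found. The RNA was that of C2C12, a mouse muscle precursor line that leaves the cell cycle and forms myotubes in differentiation medium (DM) and keeps proliferating in growth medium (GM). Each medium held acetoacetate (AA), a ketone body burnt as fuel by muscle, heart and brain, or PBS as the control, and the labels give 12 h of AA. The 4 groups were DM-AA, DM-PBS, GM-AA and GM-PBS, with 3 libraries each. Neither the concentration of AA, nor its salt, nor the time spent in DM is given in the sources used here, so an effect of AA cannot be told apart from that of a counter-ion. The design text asks which mRNA levels AA changes in each state of these cells.

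In skeletal muscle, an action potential runs into the transverse tubules and moves the voltage sensor, a calcium channel of the tubule membrane. The sensor opens the ryanodine receptor in the facing membrane of the sarcoplasmic reticulum, calcium leaves the store and the fibre contracts. Junctophilins hold the facing membranes together, calsequestrin buffers calcium inside the store beside triadin, and the SERCA pump returns calcium to it. Many genes of this machinery belong to the later programme of muscle differentiation and are low in dividing myoblasts.

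The promoters of 6 of the 9 genes were found in RefSeq sequence on GRCm38.p6, taken from 250 bases before to 50 bases after the start of transcription. Those of Cacng1, Jph1 and Trdn are named only. Promoters were searched on both strands for the E-box CANNTG, the sequence that myogenic regulatory factors such as MyoD and myogenin bind, and capitals mark each match. Ryr1 and Atp2a1 are shown because they had the highest fold changes of the tested genes with AA in DM and between the media. Jph2 is shown because its AA effect differed between the media. Casq2 is shown because its fold changes between the media had the other sign than those of Ryr1 and Atp2a1. The Casq2 fold change between the media without AA did not pass the test.
Ryr1 (chr7:29125102-29125401, minus strand): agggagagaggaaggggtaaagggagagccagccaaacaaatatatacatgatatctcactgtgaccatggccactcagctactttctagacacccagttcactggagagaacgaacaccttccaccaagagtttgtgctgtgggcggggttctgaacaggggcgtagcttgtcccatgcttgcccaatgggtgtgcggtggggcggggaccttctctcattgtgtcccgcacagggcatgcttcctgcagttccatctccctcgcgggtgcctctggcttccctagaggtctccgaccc
Atp2a1 (chr7:126463024-126463323, minus strand): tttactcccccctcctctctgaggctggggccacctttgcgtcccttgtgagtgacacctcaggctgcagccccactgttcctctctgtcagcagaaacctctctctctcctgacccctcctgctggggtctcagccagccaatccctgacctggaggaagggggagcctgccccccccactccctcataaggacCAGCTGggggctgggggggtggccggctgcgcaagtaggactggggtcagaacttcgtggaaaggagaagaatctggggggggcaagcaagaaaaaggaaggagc
Jph2 (chr2:163397944-163398243, minus strand): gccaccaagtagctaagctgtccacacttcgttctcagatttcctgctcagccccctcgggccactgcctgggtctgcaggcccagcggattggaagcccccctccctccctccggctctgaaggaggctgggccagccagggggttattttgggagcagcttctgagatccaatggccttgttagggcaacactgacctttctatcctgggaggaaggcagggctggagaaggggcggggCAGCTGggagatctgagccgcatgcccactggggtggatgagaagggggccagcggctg
Casq2 (chr3:102086165-102086464, plus strand): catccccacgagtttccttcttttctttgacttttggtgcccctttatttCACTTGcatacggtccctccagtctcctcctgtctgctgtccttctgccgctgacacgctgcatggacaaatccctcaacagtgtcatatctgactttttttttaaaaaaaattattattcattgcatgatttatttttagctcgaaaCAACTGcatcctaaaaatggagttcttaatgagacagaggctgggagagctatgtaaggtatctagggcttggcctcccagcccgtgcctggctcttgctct
Atp2a1 held 1 E-box, a CAGCTG whose first base lay 55 bases before the start. Jph2 held a CAGCTG 9 bases before the start shown, and its other annotated start holds the same one 29 bases before it. Casq2 held 2 E-boxes of other letters, a CACTTG 200 bases and a CAACTG 52 bases before the start. No CANNTG lay in the Ryr1 window. Among the promoters not printed, Cacna1s held CAGCTG 123 bases and CAGATG 160 bases before its start, and of the 2 starts of Cacnb1 the first had no E-box and the second a CACATG at 27 bases. Of 32851 RefSeq promoters of the same length, 72.3% held a CANNTG, 16.3% a CAGCTG and 20.2% a CACCTG, which none of these promoters held. The letters CATTCC of the MCAT motif, on the other strand, lay 130 bases before the start of Cacna1s and in 14.7% of all promoters. The MEF2 motif was searched as 1 pattern only, with fixed letters at both ends and any letters between them. Neither that pattern (3.69% of all promoters) nor a CArG box (1.63%) occurred in the windows searched. Forms of the MEF2 motif with other end letters were not searched, so their absence from these promoters, that of Casq2 included, is not shown. A match is a description of the letters and not a site.

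Depth ranged over 8027518 to 8245402 reads in genes for the DM-AA libraries, 7959519 to 9893564 for DM-PBS, 8484417 to 8801619 for GM-AA and 8292006 to 8965129 for GM-PBS. The filter on low counts left 12230 genes, among them 7 of the 9; Cacna1s and Trdn did not pass it. Whether libraries of a group are separate cultures is not stated, so the spread behind each p-value may be a technical one. Deviations of most libraries ran with the GC content of the genes, with a Spearman's rho across 12153 genes of -0.149 to -0.0614 in DM-AA and 0.127 to 0.150 in DM-PBS, and of -0.176 to -0.114 in GM-AA and 0.0057 to 0.211 in GM-PBS, where GM-PBS 2 (0.0057) and GM-PBS 3 (0.031) were near 0. Values of the 7 genes with that trend removed are given where they end a call. The labelled myoblasts expressed Myod1, Myf5, Des, Cdh15, Pax7 and Msc in every library. The 6 markers of differentiating myocytes (Myog, Tmem8c, Myh3, Ckm, Acta1, Tnnt3) had sums of 193 to 246 CPM (reads scaled by library size) in DM-AA, 98.2 to 108 CPM in DM-PBS, 84.6 to 113 CPM in GM-AA and 64.4 to 74.5 CPM in GM-PBS. All 6 passed the test as higher in DM-AA than in DM-PBS, and Myog, Myh3 and Acta1 in GM-AA than in GM-PBS. In GM, Myog passed narrowly (edgeR adjusted p = 0.0489) and its ranges overlapped. Between DM-PBS and GM-PBS, Myog and Tmem8c were higher and Myh3 and Acta1 lower in DM-PBS. Myf5, Des and Cdh15 of the myoblast markers were also higher with AA in both media, while Myod1 was lower in GM-AA than in GM-PBS (log2 -0.34). The 6 markers of osteoblasts and chondrocytes summed to 162 to 175 CPM in DM-AA, 213 to 243 in DM-PBS, 188 to 213 in GM-AA and 256 to 270 in GM-PBS, and both tested ones, Sox9 (log2 -0.70 in DM and -0.56 in GM) and Runx2 (-0.18 and -0.19), were lower with AA in both media, whereas Bglap, Col2a1 and Acan had at most 3 reads in any library. Sums of the smooth muscle markers, which include Des, were 1810 to 1990 CPM in DM-AA, 1660 to 1700 in DM-PBS, 1770 to 1830 in GM-AA and 1560 to 1620 in GM-PBS. Des made up most of each sum, with means of 1789, 1547, 1695 and 1451 CPM in the same groups. Of the others tested, Smtn was lower with AA in GM (log2 -0.29) and did not pass in DM (-0.09). Cnn1 did not pass with AA in either medium. The sum of the myocyte markers was higher with AA in both media, like most of the values below. Sox9 and Runx2 in both media, and Myod1 and Smtn in GM, went the other way. So did Pparg, the 1 adipocyte marker tested, in DM (log2 -0.53, edgeR adjusted p = 0.0378). The neuron marker Tubb3 was higher with AA in DM (0.25, edgeR adjusted p = 0.000149). Neither Pparg nor Tubb3 passed with AA in GM. Syn1 of the neuron markers and Cd68 of the immune ones did not pass with AA in either medium. No endothelial marker passed the filter on low counts. Between DM-PBS and GM-PBS, Myh3 and Acta1 went against most of the 7 tested genes. The part of any of these markers in the values below was not tested. In RNA of a whole culture, fewer cells of a type and less RNA per cell cannot be told apart.

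The 9 genes spanned more than 3 orders of magnitude in RPKM (reads scaled by gene length and library size), the scale on which levels of different genes are compared here. Cacng1 was the highest in every group, at a mean of 96.4 RPKM in DM-AA, 73.4 in DM-PBS, 67.9 in GM-AA and 48.0 in GM-PBS, and Jph2 followed at 34.7, 30.3, 30.9 and 22.1 RPKM in the same groups. The next 5 genes lay between 0.26 and 4.19 RPKM. In DM-AA their order was Cacnb1 (3.86), Atp2a1 (3.18), Jph1 (2.57), Ryr1 (1.90) and Casq2 (0.744), with no overlap between neighbours. In DM-PBS it was Cacnb1 (2.47), Jph1 (1.97), Atp2a1 (1.80), Ryr1 (0.83) and Casq2 (0.682), where Jph1 overlapped Atp2a1 and Ryr1 overlapped Casq2. In GM-AA the order changed to Jph1 (4.19), Cacnb1 (2.48), Casq2 (1.29), Atp2a1 (1.02) and Ryr1 (0.468), with Casq2 overlapping Atp2a1. In GM-PBS it was Jph1 (3.22), Cacnb1 (1.91), Atp2a1 (0.91), Casq2 (0.858) and Ryr1 (0.26), and again Casq2 overlapped Atp2a1. Ryr1 thus stood below Casq2 in both GM groups and above it in both DM groups by the mean. Cacna1s and Trdn stayed under 0.1 RPKM in all 12 libraries.

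**Figure D1:**
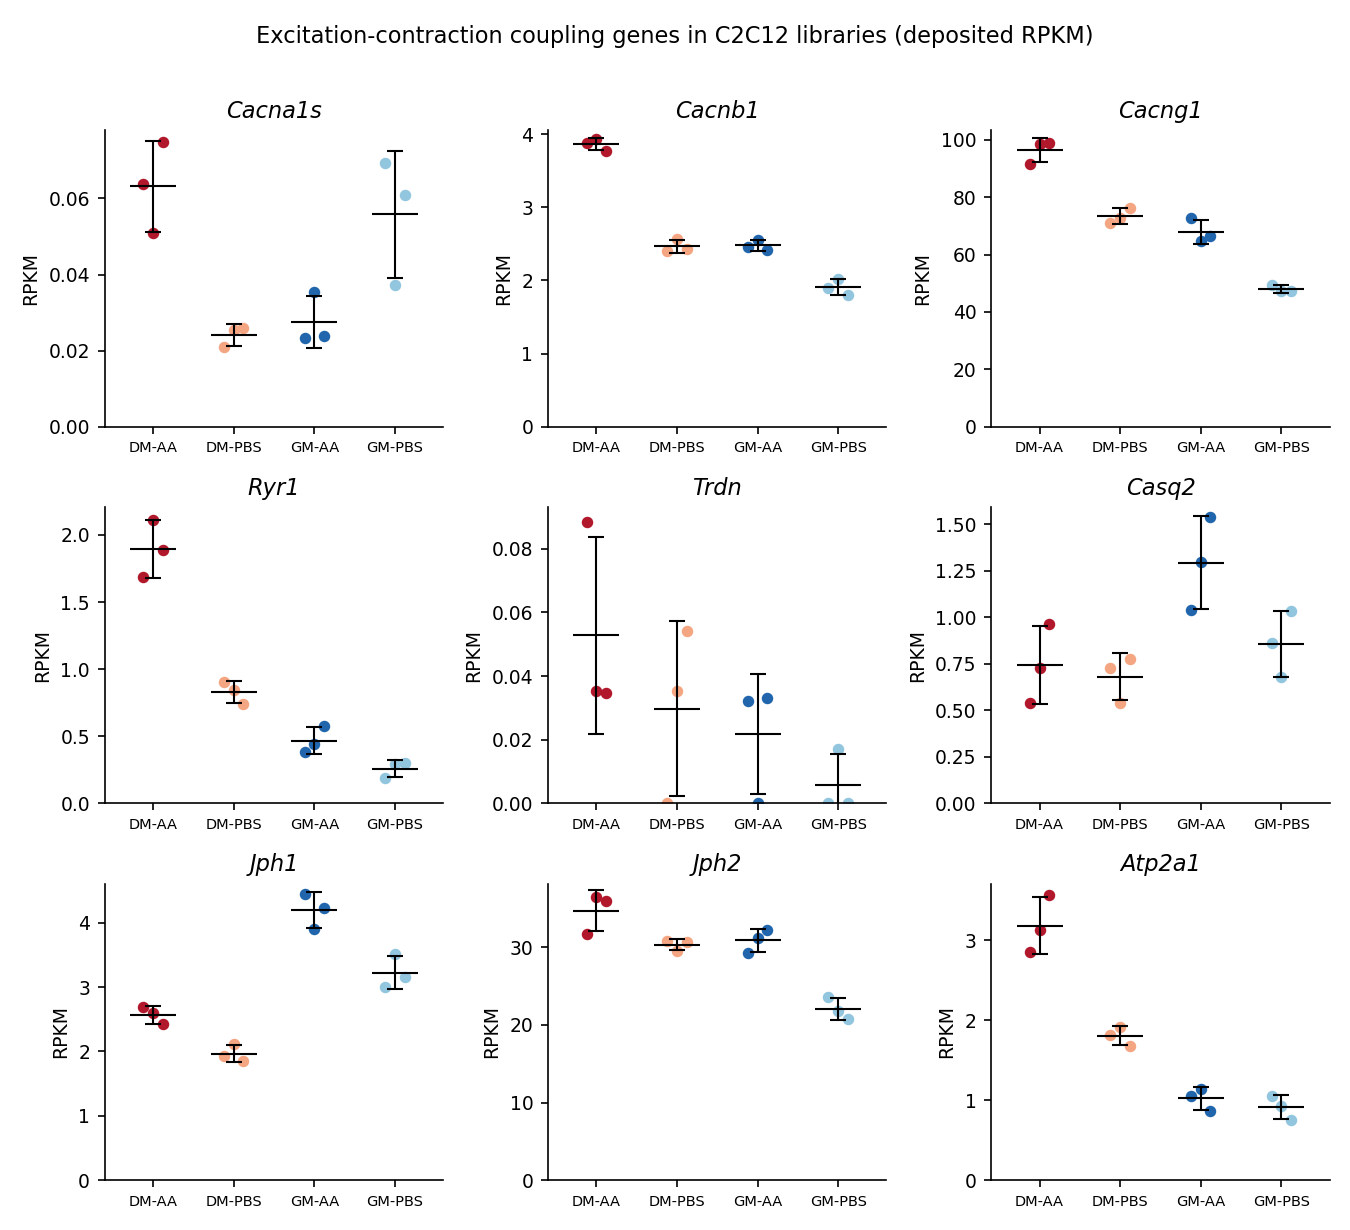
Deposited RPKM of the 9 genes in the 12 libraries, with 3 points for each of DM-AA, DM-PBS, GM-AA and GM-PBS, the mean as a horizontal bar and the SD as whiskers; each panel has its own linear axis from 0. Ryr1 and Atp2a1 step down across the 4 groups in that order by the mean, whereas Jph1 and Casq2 are higher in the GM groups, and the Cacna1s and Trdn points stand for 0 to 6 reads each.

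Acetoacetate went with more RNA of most of these genes in both media. In DM, 6 of the 7 tested genes were higher in DM-AA than in DM-PBS (Ryr1, Atp2a1, Cacnb1, Cacng1, Jph1 and Jph2) and none was lower, where 26.4% of all 12230 genes passed the test, 12.6% as higher and 13.8% as lower. Passing means a Benjamini-Hochberg adjusted p under 0.05 in edgeR's quasi-likelihood test. The median log2 fold change of the 7 was 0.38, against 0.0021 over all genes tested. In GM, 5 of the 7 were higher in GM-AA than in GM-PBS (Ryr1, Cacnb1, Cacng1, Jph1 and Jph2) and none was lower, where 20.7% of all genes passed, 9.76% as higher. Their median was 0.48, against -0.0034 over all genes. The genes were chosen with earlier results of these data known, which limits both contrasts with all genes. The 6 calls in DM and the 5 in GM were also the genes whose 3 AA libraries all lay above the 3 PBS libraries, which held for 19.9% of all genes in DM and 16.4% in GM. The effects in the 2 media differed past the test for 1 of the 7, Jph2 (log2 difference, DM minus GM, of -0.29), where 5.24% of all genes did, 2.58% with the higher and 2.67% with the lower effect in DM.

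The medium itself split the genes. In DM-PBS against GM-PBS, Ryr1, Atp2a1, Cacng1, Jph2 and Cacnb1 were higher and Jph1 was lower, where 54.4% of all genes passed, 27.0% as higher and 27.4% as lower. The same 5 had all 3 DM-PBS libraries above the GM-PBS libraries and Jph1 all below, as 29.7% of all genes had in each direction. In DM-AA against GM-AA, Ryr1, Atp2a1, Cacnb1, Cacng1 and Jph2 were higher and Casq2 and Jph1 lower, where 52.2% passed, 25.9% as higher and 26.3% as lower. Their ranges were separate but for Jph2, and 28.6% of all genes had all DM-AA libraries above and 28.8% below. With backgrounds this high, 6 and 7 calls among 7 genes say little about the list. The 2 comparisons of AA share no library, whereas each comparison of media shares its groups with them.

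**Figure D2:**
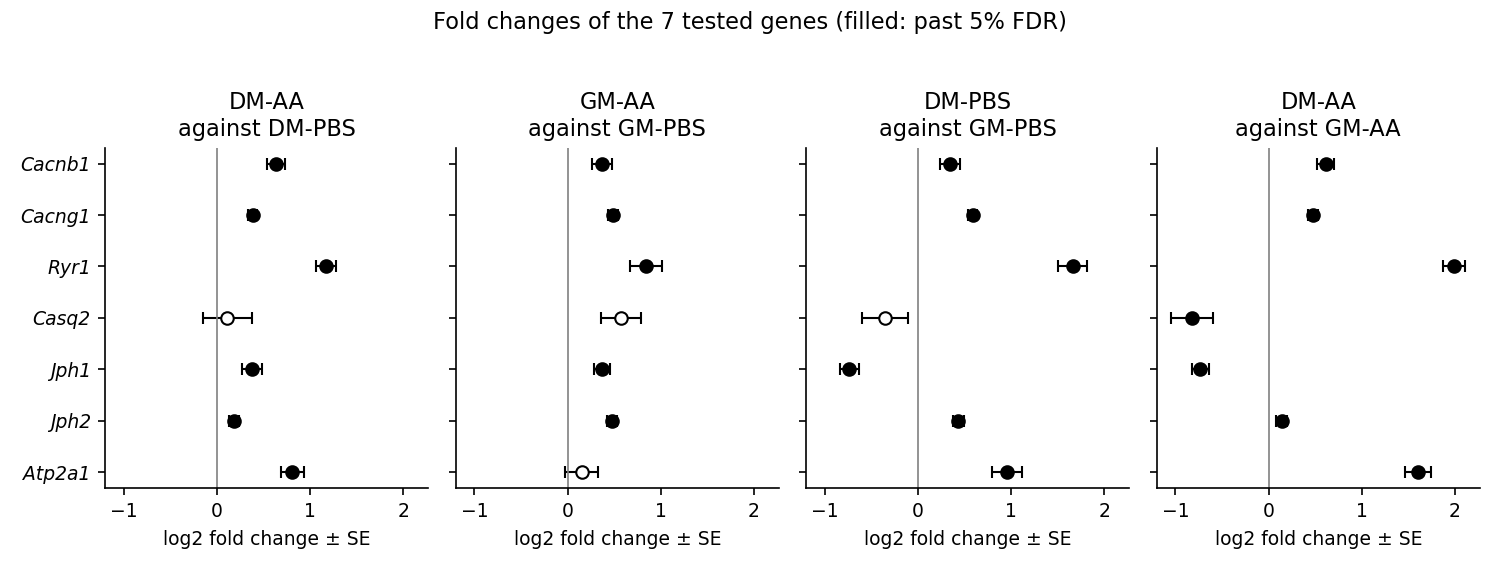
Log2 fold changes of the 7 tested genes with their SE as whiskers, 1 panel for each of DM-AA against DM-PBS, GM-AA against GM-PBS, DM-PBS against GM-PBS and DM-AA against GM-AA; filled points passed a 5% false discovery rate in edgeR. In both AA panels every point lies to the right of 0, and in both panels of media Casq2 and Jph1 lie to the left.

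Of the voltage sensor, 2 subunits were measurable and the pore itself was at the limit of detection. Cacna1s (GRCm38 chr1:136052750-136119822) encodes the pore and voltage-sensing subunit of the skeletal muscle calcium channel. It had 5, 4 and 6 reads in the DM-AA libraries, 2, 2 and 2 in DM-PBS, 2, 3 and 2 in GM-AA and 6, 3 and 5 in GM-PBS. A floor of 3 reads corresponds to 0.305 to 0.377 CPM, so most of these libraries were at or near it. Fitted without a filter on low counts, no comparison passed for Cacna1s (edgeR adjusted p = 0.195 to 0.419). Exons of Gm37759 on the other strand cover 19.98% of its exons, and whether reads were assigned by strand is not given in the sources used here.

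Cacnb1 (GRCm38 chr11:98001508-98023034), the beta subunit that brings the channel to the membrane, had 23.0, 23.3 and 22.3 CPM in the DM-AA libraries, 14.4, 15.3 and 14.4 CPM in DM-PBS, 14.6, 15.5 and 14.7 CPM in GM-AA and 11.5, 12.3 and 10.95 CPM in GM-PBS. The DM-AA libraries stood above all the others, the GM-PBS libraries below all the others, and DM-PBS and GM-AA overlapped. With AA the RNA was 1.55-fold higher in DM (log2 0.64 ± 0.095 SE, n = 3 each; edgeR adjusted p = 3.7e-06) and 1.29-fold higher in GM (0.37 ± 0.11; edgeR adjusted p = 0.0132). In GM that call was lost with DESeq2's Wald test (adjusted p = 0.0566) and without GM-PBS 3 (0.0548). DM-PBS was 1.27-fold above GM-PBS (0.34 ± 0.11; edgeR adjusted p = 0.00761), a call that ended after removal of the GC and length trend (0.24; adjusted p = 0.0566), and DM-AA was 1.53-fold above GM-AA (0.61 ± 0.095; edgeR adjusted p = 1.67e-06).

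Most beta subunit RNA of these cells was not Cacnb1. Cacnb3, a beta subunit of many tissues, averaged 42.7 ± 1.57 RPKM in DM-AA, 48.3 ± 0.386 in DM-PBS, 39.6 ± 2.46 in GM-AA and 46.7 ± 1.89 in GM-PBS (SD, n = 3 each). It was lower with AA in both media, by log2 -0.19 ± 0.050 in DM (edgeR adjusted p = 0.00439) and -0.25 ± 0.050 in GM (0.000493), the first of which ended after removal of the GC and length trend (adjusted p = 0.0521). As a share of the summed RPKM of Cacnb1 to Cacnb4, Cacnb1 was 8.0% to 8.4% in DM-AA, 4.70% to 4.94% in DM-PBS, 5.29% to 6.29% in GM-AA and 3.66% to 4.2% in GM-PBS. The ranges did not overlap in either medium, and the exact two-sided permutation test gave p = 0.1 in both, the smallest value that 3 libraries against 3 allow. Cacnb2 averaged 0.741 ± 0.0421 RPKM in DM-AA, 0.596 ± 0.132 in DM-PBS, 1.00 ± 0.163 in GM-AA and 0.996 ± 0.116 in GM-PBS.

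Cacng1 (GRCm38 chr11:107703218-107716522) encodes the gamma subunit of the skeletal muscle channel, which limits calcium entry through it. It had 169, 182 and 182 CPM in the DM-AA libraries, 133, 136 and 142 CPM in DM-PBS, 135, 122 and 126 CPM in GM-AA and 93.8, 89.6 and 89.7 CPM in GM-PBS. Here too DM-AA lay above and GM-PBS below all other libraries, with DM-PBS and GM-AA overlapping. The AA effect was 1.3-fold in DM (log2 0.38 ± 0.049 SE, n = 3 each; edgeR adjusted p = 2.63e-07) and 1.41-fold in GM (0.49 ± 0.053; edgeR adjusted p = 1.64e-08), with a difference of -0.11 ± 0.073 between the media (edgeR adjusted p = 0.498). DM-PBS was 1.5-fold above GM-PBS (log2 0.58 ± 0.053; edgeR adjusted p = 2.1e-11) and DM-AA 1.39-fold above GM-AA (0.48 ± 0.050; edgeR adjusted p = 6.26e-10).

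Ryr1 showed the highest log2 fold change of the 7 tested genes in all 4 comparisons of groups. It encodes the calcium release channel of skeletal muscle (GRCm38 chr7:29003344-29125179). The gene had 39.8, 49.9 and 44.5 CPM in the DM-AA libraries, 21.6, 20.1 and 17.6 CPM in DM-PBS, 9.11, 10.7 and 14.0 CPM in GM-AA and 4.55, 7.11 and 7.22 CPM in GM-PBS. The 4 groups formed 4 separate ranges, falling in that order. AA went with 2.25-fold more RNA in DM (log2 1.17 ± 0.11 SE, n = 3 each; edgeR adjusted p = 2.53e-10) and 1.79-fold more in GM (0.84 ± 0.18; edgeR adjusted p = 0.000588). The difference between these effects, 0.33 ± 0.21, did not pass (edgeR adjusted p = 0.474). DM-PBS was 3.17-fold above GM-PBS (1.66 ± 0.16; edgeR adjusted p = 5.43e-11) and DM-AA 3.97-fold above GM-AA (1.99 ± 0.12; edgeR adjusted p = 8.38e-16). Each of these 4 calls held under every alternative run. Exons of Gm26604 and Gm44408 on the other strand cover 4.19% of the exons of Ryr1.

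Ryr3, the ryanodine receptor known from immature skeletal muscle, was the more abundant of the family per length. It averaged 3.81 ± 0.378 RPKM in DM-AA, 1.78 ± 0.198 in DM-PBS, 1.02 ± 0.0235 in GM-AA and 0.606 ± 0.0388 in GM-PBS, against 1.90, 0.83, 0.468 and 0.26 RPKM of Ryr1 in the same groups. Ryr2, the cardiac receptor, had 2 reads in the 12 libraries together. Ryr3 was higher with AA by log2 1.09 ± 0.073 in DM (edgeR adjusted p = 2.21e-13) and 0.74 ± 0.11 in GM (5.05e-06), and higher in DM-PBS than in GM-PBS by 1.53 ± 0.098 (4.31e-15). Ryr1 had a share of the family's summed RPKM of 33.2% ± 2.94 in DM-AA, 31.9% ± 0.638 in DM-PBS, 31.3% ± 4.95 in GM-AA and 29.8% ± 6.29 in GM-PBS (SD, n = 3 each). No comparison of these shares came below an exact permutation p of 0.6 (two-sided), and their ranges overlapped.

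**Figure D3:**
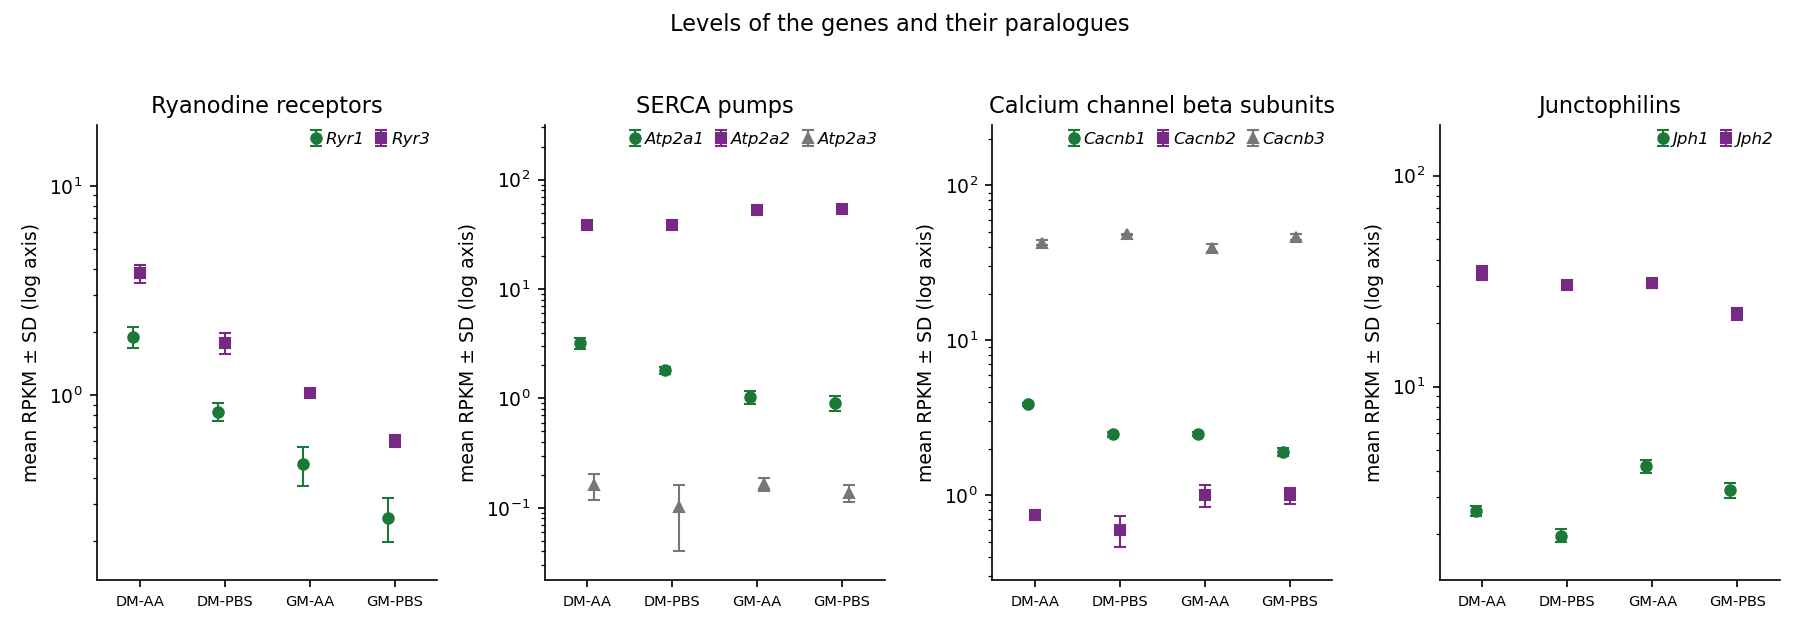
Mean RPKM with SD (n = 3 libraries, logarithmic axes) of 4 of the genes' families in DM-AA, DM-PBS, GM-AA and GM-PBS: ryanodine receptors, SERCA pumps, calcium channel beta subunits and junctophilins. Ryr1 and Ryr3 step down in parallel, Atp2a1 and Cacnb1 lie far below Atp2a2 and Cacnb3, and Jph2 lies above Jph1 in each group.

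Of the store genes, Casq2 passed the filter on low counts and Trdn was at the limit of detection. Casq2 (GRCm38 chr3:102086415-102146514) encodes the calsequestrin of heart and slow muscle, which binds calcium inside the store. Its libraries had 17, 23 and 31 reads in DM-AA, 28, 17 and 24 in DM-PBS, 36, 44 and 52 in GM-AA and 30, 22 and 34 in GM-PBS. In CPM this was 2.09 to 3.71 in DM-AA, 2.10 to 3.01 in DM-PBS, 4.05 to 6.12 in GM-AA and 2.70 to 4.09 in GM-PBS, so that AA and PBS ranges overlapped in both media, in GM by the lowest GM-AA library alone. The AA effect was 0.11 ± 0.26 SE in DM (log2, n = 3 each; edgeR adjusted p = 0.796), with the sign turning without DM-AA 3 (-0.12) or DM-PBS 2 (-0.02). In GM it was 0.58 ± 0.22 (edgeR adjusted p = 0.0538), which did not pass but did under 8 of the 21 alternatives, among them leaving out DM-AA 1 (0.0470), DM-AA 3 (0.0488), GM-AA 1 (0.0248) or GM-PBS 3 (0.0399). DM-AA stood 1.76-fold below GM-AA (log2 -0.82 ± 0.23; edgeR adjusted p = 0.00267), and DM-PBS differed from GM-PBS by -0.35 ± 0.25 (0.239). Casq1, the calsequestrin of fast skeletal muscle, summed to 4 reads over the DM-AA libraries, 10 in DM-PBS, 6 in GM-AA and 2 in GM-PBS. Heart markers gave a mixed picture beside Casq2. Gata4 had 198 to 285 reads per library but Hand2 had 0, Tbx5 at most 1 and Myh6 at most 2. Nppa had at most 7 reads in a library, Nkx2-5 at most 8 and Nppb at most 17. The 8 heart markers summed to 26.9 to 31.5 CPM in DM-AA and 27.0 to 28.6 in DM-PBS. In GM-AA the sum was 35.1 to 35.8 CPM and in GM-PBS 32.5 to 36.2. Gata4 made up most of each sum, with means of 26.3, 25.5, 32.4 and 31.6 CPM in the same groups. Nppb was lower in DM-AA than in GM-AA (edgeR adjusted p = 0.0117) and did not pass between the PBS groups (0.104). Tnni3 went the other way, with 15 reads in DM-AA, 20 in DM-PBS, 5 in GM-AA and 2 in GM-PBS. The part of these markers in the Casq2 values was not tested.

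Trdn (GRCm38 chr10:33080554-33476709), whose protein triadin ties calsequestrin to the release channel, had 5, 2 and 2 reads in the DM-AA libraries, 0, 2 and 3 in DM-PBS, 2, 0 and 2 in GM-AA and 0, 1 and 0 in GM-PBS. With 11 of 12 libraries at or below the floor of 3 reads, no difference was detectable at this depth, and without a filter the edgeR adjusted p was 0.284 to 0.964. No fold change is given for it.

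The junction genes differed between the media in opposite directions. Jph1 (GRCm38 chr1:16964560-17097889), the junctophilin of skeletal muscle, had 19.9, 19.2 and 17.8 CPM in the DM-AA libraries, 14.5, 15.8 and 13.7 CPM in DM-PBS, 33.1, 29.4 and 32.2 CPM in GM-AA and 22.8, 26.6 and 24.0 CPM in GM-PBS. All 4 ranges were separate, with GM-AA the highest and DM-PBS the lowest. AA went with 1.3-fold more RNA in DM (log2 0.37 ± 0.10 SE, n = 3 each; edgeR adjusted p = 0.00682) and 1.29-fold more in GM (0.37 ± 0.086; edgeR adjusted p = 0.00185), a difference of 0.00 ± 0.13. DM-PBS was 1.67-fold below GM-PBS (-0.74 ± 0.099; edgeR adjusted p = 1.1e-07) and DM-AA 1.66-fold below GM-AA (-0.73 ± 0.090; edgeR adjusted p = 2.27e-08).

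Jph2 (GRCm38 chr2:163336242-163397993), the junctophilin of heart that skeletal muscle also expresses, had 208, 238 and 235 CPM in the DM-AA libraries, 203, 195 and 201 CPM in DM-PBS, 193, 208 and 217 CPM in GM-AA and 158, 146 and 139 CPM in GM-PBS. The GM-PBS libraries stood apart below the other 9. With AA it was 1.13-fold higher in DM (log2 0.18 ± 0.055 SE, n = 3 each; edgeR adjusted p = 0.0127) and 1.39-fold higher in GM (0.48 ± 0.057; edgeR adjusted p = 1.06e-07). The call in DM was lost without DM-AA 2 (adjusted p = 0.0894), DM-AA 3 (0.0737) or DM-PBS 2 (0.0574). The difference between the effects, -0.29 ± 0.079, passed (edgeR adjusted p = 0.0203) but not without DM-AA 1 (0.0764), DM-PBS 1 (0.0540), GM-AA 3 (0.0754) or GM-PBS 3 (0.0870). DM-PBS was 1.35-fold above GM-PBS (0.43 ± 0.057; edgeR adjusted p = 6.7e-08). DM-AA was 1.10-fold above GM-AA (0.14 ± 0.055; edgeR adjusted p = 0.0324) with overlapping ranges, and that call ended after removal of the GC and length trend (0.06; adjusted p = 0.333) and without DM-AA 2 (0.172), DM-AA 3 (0.129) or GM-AA 1 (0.186).

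Jph2 dominated the family in every group. It made up 92.9% ± 0.725 of the summed junctophilin RPKM in DM-AA, 93.8% ± 0.709 in DM-PBS, 87.9% ± 1.04 in GM-AA and 87.0% ± 1.3 in GM-PBS (SD, n = 3 each). Jph1 took 6.92%, 6.08%, 12.0% and 12.8% in the same groups, and its DM-AA libraries (6.29% to 7.82%) lay below those of GM-AA (11.1% to 13.2%), with p = 0.1 in the exact two-sided permutation test, the smallest it can give. Jph3 and Jph4, the neuronal junctophilins, had at most 5 reads in any library.

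Atp2a1 rose with AA in DM and did not pass the test in GM. It encodes SERCA1, the calcium pump of fast skeletal muscle (GRCm38 chr7:126445858-126463108). The libraries had 15.1, 16.5 and 18.8 CPM in DM-AA, 9.67, 10.2 and 8.92 CPM in DM-PBS, 5.63, 6.16 and 4.71 CPM in GM-AA and 5.69, 5.02 and 4.09 CPM in GM-PBS. DM-AA stood above DM-PBS and both above the GM libraries, among which GM-AA and GM-PBS overlapped. The AA effect was 1.75-fold in DM (log2 0.81 ± 0.12 SE, n = 3 each; edgeR adjusted p = 5.43e-06) and 0.15 ± 0.18 in GM (edgeR adjusted p = 0.601). Their difference of 0.65 ± 0.22 did not pass (edgeR adjusted p = 0.0792, and 0.0536 to 0.247 over 20 alternatives), so the effects were not shown to differ between the media. DM-PBS was 1.94-fold above GM-PBS (0.96 ± 0.16; edgeR adjusted p = 4.91e-06) and DM-AA 3.05-fold above GM-AA (1.61 ± 0.14; edgeR adjusted p = 7.82e-12).

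Exons of Rabep2 on the other strand cover 21.94% of the exons of Atp2a1, and without knowledge of strand the reads of the 2 genes cannot be told apart there. Rabep2 averaged 26.1 ± 2.11 CPM in DM-AA, 29.0 ± 2.55 in DM-PBS, 19.4 ± 2.18 in GM-AA and 21.6 ± 2.20 in GM-PBS (SD, n = 3 each). Its AA effect in DM was -0.16 ± 0.094 (log2; edgeR adjusted p = 0.222), of the other sign than that of Atp2a1, whereas it was higher in DM-PBS than in GM-PBS by 0.43 ± 0.097 (0.000328), the same direction as Atp2a1.

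Most SERCA RNA was Atp2a2, the pump of heart, slow muscle and cells in general. It averaged 38.9 ± 0.204 RPKM in DM-AA, 38.1 ± 1.03 in DM-PBS, 53.3 ± 0.569 in GM-AA and 53.5 ± 1.57 in GM-PBS (SD, n = 3 each). Its AA effects were 0.02 ± 0.044 in DM (log2; edgeR adjusted p = 0.836) and -0.02 ± 0.043 in GM (0.826), and it was lower in DM-PBS than in GM-PBS by -0.52 ± 0.044 (5.09e-12). Atp2a1 made up 6.84% to 8.32% of the SERCA RPKM in the DM-AA libraries, 4.35% to 4.68% in DM-PBS, 1.60% to 2.07% in GM-AA and 1.43% to 1.88% in GM-PBS. The shares did not overlap between DM-AA and DM-PBS or between DM-PBS and GM-PBS, each with p = 0.1 in the exact two-sided permutation test, its smallest value, and overlapped between GM-AA and GM-PBS (p = 0.3). The pump's small inhibitors were at the limit of detection, with 1 read of Sln in the 12 libraries and at most 5 reads of Pln in any.

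Other genes of calcium handling, 68 in the table and 44 tested, moved in both directions with AA. In DM, 14 of the 44 were higher and 6 lower (median log2 fold change 0.074), where 26.4% of all genes passed. In GM, 10 were higher and 3 lower (median 0.037), where 20.7% passed. The genes were in 5 lists, and the values below name the members of each list with the smallest p.

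Of the triad and release complex, 8 of 14 tested genes were higher and 2 lower in DM-AA than in DM-PBS, where 12.6% of all genes were higher and 13.8% lower, and 6 were higher and none lower in GM-AA than in GM-PBS, where 9.76% of all genes were higher. Hrc, a histidine-rich calcium-binding protein inside the store, had 12.9 ± 2.03 CPM in DM-AA and 3.91 ± 0.495 in DM-PBS, and 3.12 ± 0.622 CPM in GM-AA and 2.82 ± 0.402 in GM-PBS (SD, n = 3 each). Its AA effect was log2 1.71 ± 0.16 in DM (edgeR adjusted p = 6.19e-10) and 0.15 ± 0.24 in GM (0.72), and the difference of 1.56 ± 0.30 passed (0.000945). Srl, the calcium-binding sarcalumenin of the store, was higher by 1.06 ± 0.12 in DM (edgeR adjusted p = 2.15e-08) and 0.63 ± 0.13 in GM (0.000743). Tmem38a, a cation channel of the store membrane that carries counter-current during release, was higher by 0.78 ± 0.086 in DM (edgeR adjusted p = 1.28e-08) and 0.32 ± 0.099 in GM (0.0201), the GM call being lost without GM-AA 1 (0.0652) or GM-PBS 2 (0.184). Tmem38b, its relative in the reticulum of most cells, was higher by 0.43 ± 0.070 in GM (edgeR adjusted p = 2.81e-05) and by 0.30 ± 0.076 in DM (0.00359), the DM call ending after removal of the GC and length trend (adjusted p = 0.0632). Genes of this list lower in DM-AA were Mtmr14, a phosphoinositide phosphatase, by -0.46 ± 0.086 (edgeR adjusted p = 9.17e-05) and Dysf, the membrane repair protein dysferlin, by -0.33 ± 0.11 (0.0241), the last of which was lost without DM-AA 1, DM-AA 3, DM-PBS 1 or DM-PBS 3 and under 3 other alternatives (adjusted p = 0.0549 to 0.0966).

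On the cell surface, 3 of 6 tested genes for membrane excitation were higher with AA in each medium and none was lower, where 12.6% of all genes were higher in DM and 9.76% in GM. Chrna1, the alpha subunit of the muscle acetylcholine receptor, had 675 ± 32.0 CPM in DM-AA and 521 ± 8.77 in DM-PBS, and 551 ± 16.4 CPM in GM-AA and 429.9 ± 12.1 in GM-PBS (SD, n = 3 each). Its AA effect was log2 0.37 ± 0.045 in DM (edgeR adjusted p = 7.79e-08) and 0.36 ± 0.046 in GM (3.72e-07). Kcnn3, a calcium-activated potassium channel, was higher by 0.76 ± 0.16 in DM (edgeR adjusted p = 0.000536), and Kcnj2, the inward rectifier that sets the resting potential, by 0.50 ± 0.061 in GM (1.68e-07) against 0.02 ± 0.056 in DM (0.855).

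Among the pumps and exchangers, 2 of 4 tested genes were higher in DM-AA and 1 in GM-AA, with none lower, where 12.6% and 9.76% of all genes were higher in the same media, and 4 genes are too few to read a share from. The plasma membrane calcium pump Atp2b4 was higher by log2 0.24 ± 0.052 in DM (edgeR adjusted p = 0.000846), and Atp2b1 by 0.18 ± 0.049 in GM (0.00713), a call that ended after removal of the GC and length trend (adjusted p = 0.0745) or without GM-PBS 1 (0.0656). The sodium-calcium exchanger Slc8a1 was higher by 0.28 ± 0.080 in DM (edgeR adjusted p = 0.00802), which ended the same way (0.191) and without DM-PBS 3 (0.0577).

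The IP3 receptors, store-operated channels and buffers, which serve calcium signalling in cells of all kinds, gave 1 higher and 3 lower of 16 tested genes in DM-AA, and none higher and 2 lower in GM-AA. With 26.4% of all genes past the test in DM and 20.7% in GM, the 4 and 2 calls among 16 genes were at or below the background. Itpr2, an IP3 receptor, was lower with AA by log2 -0.41 ± 0.070 in DM (edgeR adjusted p = 2.94e-05) and -0.20 ± 0.069 in GM (0.0321, lost without GM-AA 1, GM-AA 2, GM-PBS 1 or GM-PBS 2 and under 2 other alternatives, at 0.0627 to 0.120). Itpr3 was lower by -0.23 ± 0.053 (edgeR adjusted p = 0.00162) and the channel Orai3 by -0.31 ± 0.077 (0.00255) in DM. Calm2, 1 of the 3 calmodulin genes, was higher by 0.20 ± 0.050 in DM (edgeR adjusted p = 0.00251; 0.0640 after removal of the GC and length trend), and Calm3 was lower by -0.13 ± 0.044 in GM (0.0321, lost without GM-AA 1, GM-AA 2, GM-PBS 1 or GM-PBS 3 and under 4 other alternatives, at 0.0598 to 0.138). Of the 4 tested partners of the voltage sensor, Cacnb3 was lower in both media and none was higher. Cacna2d1 did not pass with AA in either medium. After removal of the GC and length trend it was lower in DM (log2 -0.17, edgeR adjusted p = 0.00859) and in GM (-0.21, 0.00186). Stac3, an adaptor that the sensor needs to couple to the release channel, differed by 0.35 ± 0.22 in DM (edgeR adjusted p = 0.251) and 0.57 ± 0.29 in GM (0.177).

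**Figure D4:**
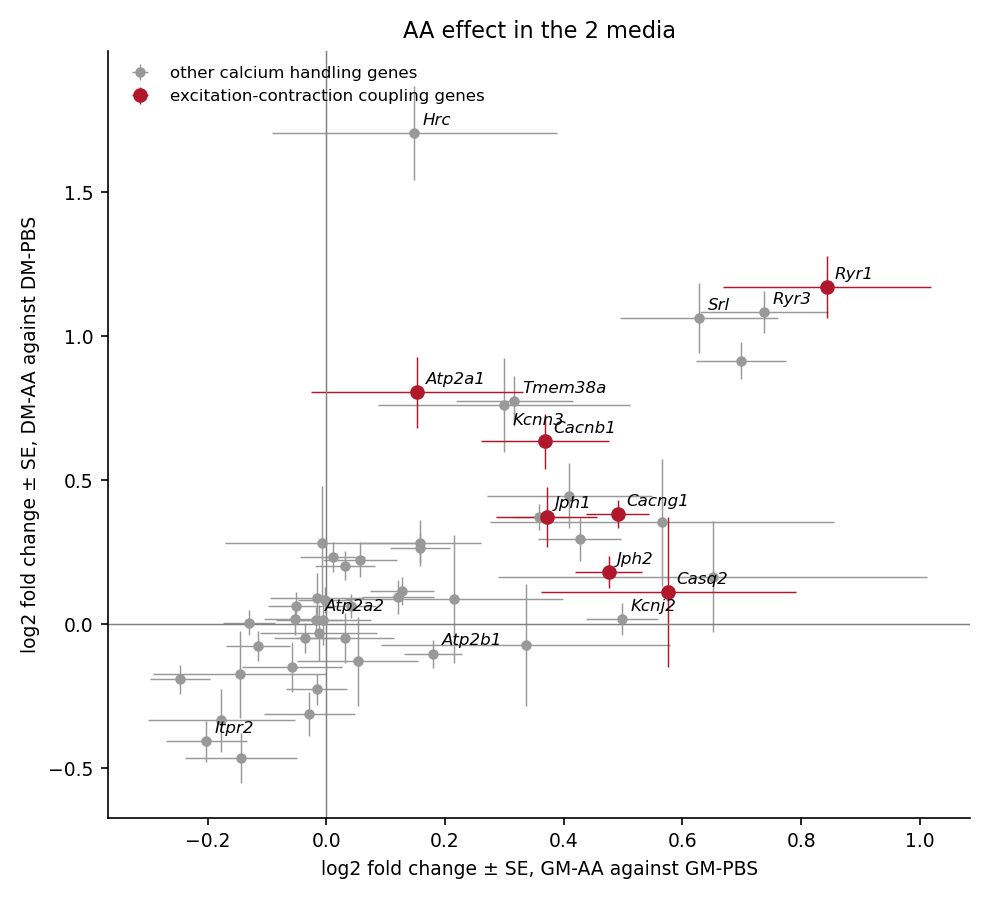
Log2 fold change with AA in DM (vertical axis, DM-AA against DM-PBS) against that in GM (horizontal axis, GM-AA against GM-PBS), with the SE in both directions, for the 7 tested excitation-contraction coupling genes and the 44 other calcium handling genes. Ryr1, Ryr3 and Srl lie in the upper right, Hrc and Atp2a1 are high on the vertical axis and near 0 on the horizontal, and Itpr2 lies below 0 on both.

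Between the media without AA, 20 of the 44 other genes were higher in DM-PBS than in GM-PBS and 11 lower, where 54.4% of all genes passed, and 21 were higher and 11 lower in DM-AA than in GM-AA, where 52.2% did. By direction, 27.0% of all genes were higher and 27.4% lower in DM-PBS than in GM-PBS, and the log2 values that follow are of that comparison. Of the triad genes, Jsrp1, a junctional protein of the store membrane, was higher by 0.77 ± 0.13 (edgeR adjusted p = 7.28e-06) and Mtmr14 by 0.54 ± 0.087 (2.63e-06), and the scaffold gene Homer1 was lower by -0.47 ± 0.084 (1.59e-05). Among the pumps and exchangers, Slc8a1 was higher by 0.93 ± 0.093 (edgeR adjusted p = 2.09e-10), Atp2b4 by 0.53 ± 0.054 (2.76e-10) and Atp2b1 by 0.23 ± 0.049 (0.000146), the reverse of Atp2a2. On the cell surface, Kcnj2 was higher by 0.71 ± 0.060 (edgeR adjusted p = 4.29e-12), whereas Atp1b1, a beta subunit of the sodium pump, was lower by -1.40 ± 0.12 (1.31e-11). Of the IP3 receptor and buffer list, 4 genes were higher and 5 lower. Stim2, a calcium sensor of the reticulum, was higher by 0.60 ± 0.052 (edgeR adjusted p = 8.24e-12), and Itpr3 was lower by -0.72 ± 0.052 (8.72e-14), the reticulum chaperone Calr by -0.46 ± 0.053 (6.19e-09) and the calcium-binding Calu by -0.29 ± 0.045 (1.63e-06). Partners of the voltage sensor also split, with Cacnb2 lower by -0.75 ± 0.18 (edgeR adjusted p = 0.000768), Stac3 higher by 0.98 ± 0.27 (0.00274) and Cacna2d1, an alpha-2-delta subunit, higher by 0.16 ± 0.054 (0.00999), the last of which was lost without GM-PBS 1 (0.109).

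The genes whose pattern over the 12 libraries was most like that of each tested gene were found by Pearson's r of log2 CPM, given as a description. Since the libraries form 4 groups, r reflects mostly the 4 group means. Ryr1 was closest to Chrng (0.992), Erbb3 (0.988) and Rasl11b (0.986), and Atp2a1 to Lgr5 (0.987), Sntb1 (0.986) and Ank1 (0.982). Lgr5 averaged 5.50 CPM in DM-AA and 1.18 in DM-PBS, and 0.0387 CPM in GM-AA and 0.0379 in GM-PBS. Cacnb1 was closest to Neb (0.985), Igf2 (0.977) and Lypd6 (0.975), and Cacng1 to Arl6ip5 (0.988), Synpo2l (0.985) and Tppp3 (0.985). Jph2 was closest to Olfm1 (0.953), Armcx3 (0.949) and Ldb3 (0.948). Jph1 had other neighbours, Pno1 (0.992), Mthfd2 (0.985) and Abce1 (0.980), each of which was, by its mean, highest in GM-AA and lowest in DM-PBS like Jph1 itself. The nearest genes of Casq2 were less close, with Cdk20 at 0.905, Zfp800 at 0.899 and Slc16a10 at 0.875.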

How the data were processed

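Messenger RNA of 12 C2C12 libraries was analysed. The submitters' processing notes name BWA 0.5.9-r16 and the mm9 build. No counting rule, strand setting or annotation is given in the sources used here. The authors deposited 1 table of raw read counts and RPKM values per gene, per the file headers; recomputed RPKM matched within 0.0005%, and 0 sample columns were left unmatched. Counts were tested with edgeR 4.0.16 (R 4.3.3): filterByExpr by group (12230 of 23446 genes), TMM scaling, 1 model with 4 group means over the 12 libraries, quasi-likelihood F tests (two-sided, 8 residual degrees of freedom), Benjamini-Hochberg adjustment over all tested genes and a 5% false discovery rate. The SE is the log2 fold change divided by the square root of F. CPM is scaled by TMM. Floors of 3 reads cover counting error only. Replicate libraries differed by more than counting noise (chi-square per degree of freedom 1.46 to 2.94). GENCODE annotation of GRCm38 gave positions, GC content and exon overlaps and RefSeq the promoters. Alternatives were other scalings, no filter, DESeq2 1.42.0, a GC and length offset, a replicate block and leaving out each library. The 9 genes, the lists and the tests were chosen with earlier results of these data known. Named are the 9 genes, the paralogues and the 3 genes most alike in pattern. Of each other list, up to 4 genes past the threshold with the smallest p are named. Stac3, Dysf, Mtmr14, Tmem38b in DM, Cacna2d1 with AA, Sln, Pln and Rabep2 were added after their values were seen. Values of 2 listed genes are counted but not reported here. The fit was tested on simulated data.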

Additional observations from a re-analysis of the deposited data

Results flagged for a closer look

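The AA effect in DM minus that in GM passed a 5% false discovery rate (edgeR, n = 3 libraries per group) for 5 of the 51 tested genes of calcium handling, where 5.24% of all 12230 genes passed, and these are the results in which the media differed. For Jph2 the difference was -0.29 on the log2 scale. That call was lost without DM-AA 1 (edgeR adjusted p = 0.0764), DM-PBS 1 (0.0540), GM-AA 3 (0.0754) or GM-PBS 3 (0.0870). In each medium all 3 AA libraries of Jph2 lay above the 3 PBS libraries. This held for 19.9% of all genes in DM and 16.4% in GM. Hrc differed by 1.56, with 12.9 CPM in DM-AA and 3.91 in DM-PBS, and 3.12 in GM-AA and 2.82 in GM-PBS; this difference held under every alternative run. Tmem38a differed by 0.46 (edgeR adjusted p = 0.0323), a call lost with DESeq2's Wald test and on leaving out any 1 library other than DM-AA 1, GM-AA 1 and GM-PBS 2 (adjusted p = 0.0549 to 0.146). The plasma membrane pump Atp2b1 differed by -0.28 (edgeR adjusted p = 0.00897), with 384 CPM in DM-AA and 412 in DM-PBS, and 398 in GM-AA and 352 in GM-PBS. After removal of the GC and length trend, its AA effect in GM did not pass (log2 0.10, edgeR adjusted p = 0.0745). In DM it then passed as lower with AA (-0.18, 0.000870). Kcnj2 differed by -0.48 (edgeR adjusted p = 0.000254), with 89.2 CPM in DM-AA and 88.2 in DM-PBS, and 76.3 in GM-AA and 54.0 in GM-PBS. No cause was tested.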

How the results depend on the processing

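Of 727 recomputed fold changes of the 7 tested genes, 16 lost and 8 gained a call; 8 changed sign, all of them uncalled before and after. Of 4572 of the other calcium genes, 111 lost and 43 gained a call, and 141 uncalled values changed sign. The number of genes past the threshold stayed within 1.5 times in every comparison (2386 to 3352 in DM-AA against DM-PBS, 1804 to 2662 in GM-AA against GM-PBS). The count of other calcium genes lower in GM-AA than in GM-PBS was 1 with total counts and no TMM, and 1 to 3 leaving out 1 library, against 3 as reported. The count of other calcium genes with a higher effect in DM was 1 with DESeq2's Wald test, and 1 to 2 leaving out 1 library, against 2; the count of the 7 genes with a lower effect in DM was 0 to 1 leaving out 1 library, against 1. The cause was not tested.

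With a replicate block the log2 AA effect of Casq2 in GM passed (edgeR adjusted p = 0.0387), as it did with total counts and no TMM (0.0417), with the RPKM divisor (0.0481) and with no filter on low counts (0.0358); the block changed no other call of the 7 genes. The replicate numbers are not said to pair the libraries. Of 18 same-numbered pairs 0 correlated above 0.1 (r of -0.0676 to 0.0823), and 2 of 12 libraries lay closest to their own number. A weak pairing could be missed in this way. Depth limits Cacna1s, Trdn and Casq2, which had at most 6, 5 and 52 reads in a library.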
